A study of Mus musculus with 6 samples.

Results

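Lcn2, the gene of lipocalin 2, and Saa3, the gene of serum amyloid A3, are 2 of the 23060 gene rows in an FPKM table (sequenced fragments per unit of transcript length, relative to all mapped fragments of the library) of cells labelled HL-1. Both were chosen because their FPKM values were higher in tachypaced than in control libraries in earlier results from the same table, so that difference is given below as a description, without a test. HL-1 is an immortalised mouse line of atrial cardiomyocyte origin, labelled wild type in all 6 libraries and kept in Claycomb medium with serum and norepinephrine in both groups. There were 3 control libraries and 3 libraries of cells that had been tachypaced, which means stimulated electrically at a high rate as a culture model of atrial fibrillation. The labels give neither the rate nor the duration of pacing. Nor do they state that each replicate was a culture of its own, so every p-value below rests on the spread among the 6 libraries, and that spread may be technical.

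Lipocalin 2 is a small secreted protein that binds bacterial siderophores, the iron carriers that bacteria release, and so withholds iron from them. It is stored in neutrophil granules and is also made by macrophages and epithelia after exposure to endotoxin or interleukin 1. Serum amyloid A proteins are acute-phase apolipoproteins: in the mouse Saa1 and Saa2 are made mainly by the liver, while Saa3 is made by macrophages, adipocytes and other cells outside the liver. Transcription of Lcn2 and Saa3 in inflammation is known to depend on NF-kB, on its nuclear cofactor IkB-zeta (encoded by Nfkbiz) and on C/EBP factors.

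Both genes lie on the minus strand of the GRCm38 build. Lcn2 (ENSMUSG00000026822) occupies chromosome 2, 32384633 to 32388252, and its main annotated transcript has 6 exons and 915 spliced bases. Saa3 (ENSMUSG00000040026) occupies chromosome 7, 46711998 to 46715700, with 4 exons and 555 bases. The other serum amyloid A genes lie upstream of it, with starts at -16.9 kb (Saa4), -27.3 kb (Saa1) and -36.1 kb (Saa2) from its own start. The sequences before the start sites are shown because both genes differed in the same direction between the groups, and because Saa1, a neighbour of Saa3, was near 0 in the same libraries. They are from the RefSeq promoter table (GRCm38.p6) and run 5′ to 3′ on the minus strand, over the part of the 250 bases before the RefSeq start that no GENCODE exon of the gene covers. Those parts are chr2:32387798-32387850 for Lcn2, chr7:46715701-46715926 for Saa3 and chr7:46742981-46743230 for Saa1. The Lcn2 stretch lies before the start of the main transcript but inside the annotated gene, which reaches 32388252 through other Lcn2 transcripts. Capitals mark matches to a C/EBP motif (TTGCNNAA), a TATA motif (TATANA) or a GC box (GGGCGG) on either strand.
Lcn2: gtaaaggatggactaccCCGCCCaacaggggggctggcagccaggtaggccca
Saa3: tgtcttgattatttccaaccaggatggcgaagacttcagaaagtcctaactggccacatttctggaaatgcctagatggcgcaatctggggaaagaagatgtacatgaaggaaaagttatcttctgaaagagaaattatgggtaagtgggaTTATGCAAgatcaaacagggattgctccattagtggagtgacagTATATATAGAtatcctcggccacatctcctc
Saa1: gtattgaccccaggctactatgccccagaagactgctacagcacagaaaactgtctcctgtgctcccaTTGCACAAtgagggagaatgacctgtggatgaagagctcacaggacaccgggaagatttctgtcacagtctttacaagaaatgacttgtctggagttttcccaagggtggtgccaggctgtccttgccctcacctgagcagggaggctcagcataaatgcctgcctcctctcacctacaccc

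In Saa3 the C/EBP match TTATGCAA lies 75 to 68 bases, and a run of overlapping TATA matches 31 to 22 bases, upstream of the main GENCODE transcript. In Lcn2 the GC box match, read as CCGCCC, lies 36 to 31 bases upstream of the start of the main GENCODE transcript, not of the annotated gene. A C/EBP match, TTGCTCAA, lies 158 to 151 bases upstream of the same transcript start, within the full 250 bases but beyond the stretch printed. Over all 32851 start windows of 250 bases in the table, 9.56% held a C/EBP match, 22.6% a TATA match and 32.7% a GC box match. An NF-kB consensus (found in 3.9% of windows) and a STAT motif, TTCCNGGAA (0.913%), were also searched on both strands and had no match in the windows of Lcn2, Saa3 or Saa1, which says only that these letters are not there. The Saa1 and Saa2 windows were 94.8% identical in a global alignment, while the Saa3 window was 52.7% identical to that of Saa1, close to the 50.5% between the windows of Saa3 and Lcn2, which are not related genes. These motifs were chosen with the sequences in view, and a match is a description of letters, not a site shown to be bound.

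Transcripts typical of cardiac muscle were scarce in all 6 libraries and those of macrophages were abundant, so the label HL-1 is used here without a cell type being taken from it. Of 10 cardiomyocyte markers 5 were listed at 0 in every library (Myh6, Actc1, Myl7, Nkx2-5 and Gata4), and the library medians were 0. The 1 marker that was tested, the cardiac troponin I gene Tnni3, stood at 3.21 ± 0.403 and 3.59 ± 0.0657 FPKM in control and tachypaced libraries (SD, n = 3 each). The library medians of 10 macrophage markers ran from 41.3 to 48.9 FPKM. The series title speaks of macrophages, while every sample label names HL-1 cells. Control replicate 1 stood nearer to the tachypaced libraries than the other controls did, so the values of Lcn2 and Saa3 and the counts of calls are given with and without it. In these bulk libraries a change in the number of cells that express a gene and a change in RNA per cell cannot be told apart.

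Lcn2 stood at 17.6, 11.6 and 9.09 FPKM in control replicates 1, 2 and 3 and at 44.02, 43.9 and 31.4 FPKM in tachypaced replicates 1, 2 and 3. The groups did not overlap: the lowest tachypaced library was 1.78 times the highest control, which was replicate 1. The means were 12.8 ± 4.38 and 39.8 ± 7.26 FPKM (SD, n = 3 each), a 3.11-fold ratio of means. On the log2(FPKM + 1) scale, which understates changes of low values, the difference was 1.60 (SE 0.21), the third largest increase among the 10361 tested genes.

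Saa3 stood at 30.4, 20.0 and 17.0 FPKM in control replicates 1, 2 and 3 and at 53.5, 61.5 and 46.2 FPKM in tachypaced replicates 1, 2 and 3. Here too the groups did not overlap, with the lowest tachypaced library at 1.52 times the highest control, again replicate 1. The means were 22.5 ± 7.04 and 53.7 ± 7.61 FPKM (SD, n = 3 each), a 2.39-fold ratio, and the log2 difference was 1.25 (SE 0.18), which ranked 6 among the tested genes. Among all 10361 tested genes, the groups did not overlap in 34.9% (tachypaced higher in 12.6%, lower in 22.4%). By limma, 5.52% passed a Benjamini-Hochberg adjusted p threshold of 0.05 (2.3% higher, 3.22% lower), or 238 and 334 genes, which became 221 and 184 after median of ratios scaling. Since these genes were chosen from this contrast, nothing is read from those shares.

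**Figure D1:**
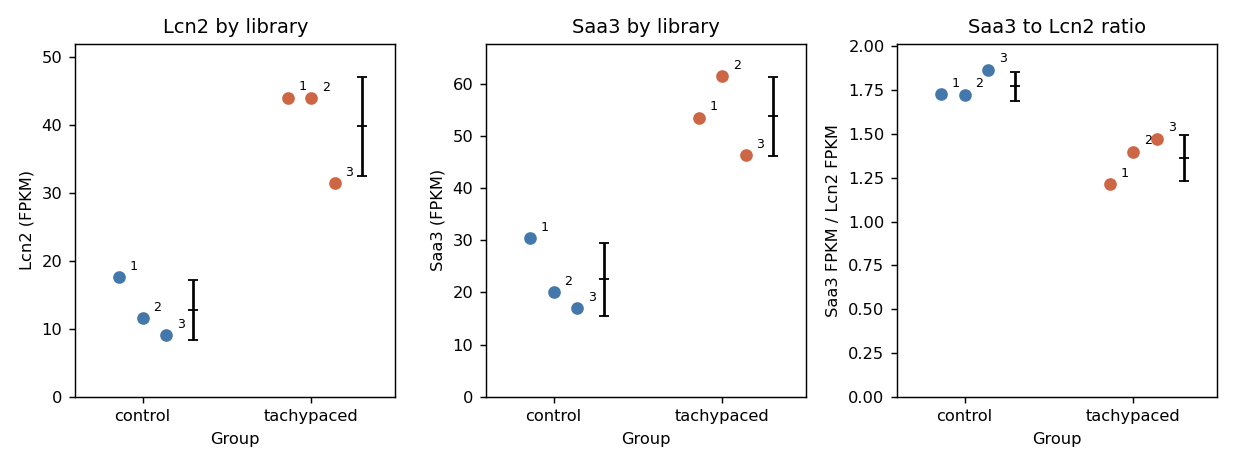
Lcn2 and Saa3 in FPKM and the ratio of Saa3 to Lcn2 in each library, numbered by replicate (points), with the mean ± SD of each group of 3 (black). The tachypaced libraries lie above all controls for both genes, control replicate 1 is the highest control, and the ratio is lower in the 3 tachypaced libraries (1.21 to 1.47) than in the controls (1.72 to 1.87).

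The spread within groups followed the same libraries in both genes. Control replicate 3 was lowest, followed by control replicates 2 and 1 and then tachypaced replicate 3, and only the order of tachypaced replicates 1 and 2 differed, which for Lcn2 were 44.02 and 43.92 FPKM. This order, with the last 2 libraries in either order, was shared by 327 tested genes (3.16%), among them 115 of the 238 called higher. The reverse order was shared by 718 (6.93%). The first order puts every tachypaced library above every control, as in 1301 tested genes. Its share among genes called higher is therefore partly built in. Controls spread more than tachypaced libraries: the highest control was 1.94 times the lowest for Lcn2 and 1.79 times for Saa3, against 1.40 and 1.33 times among tachypaced libraries. On a log2(FPKM + 1) scale where the mean of the other 2 controls is 0 and the tachypaced mean is 1, control replicate 1 lay at 0.393 for Lcn2 and 0.466 for Saa3. Without it the ratio of means was 3.84 for Lcn2 and 2.90 for Saa3.

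Saa3 was the more abundant of the pair in every library, on a scale that accounts for transcript length. The ratio of Saa3 to Lcn2 FPKM was 1.73, 1.72 and 1.87 in control replicates 1, 2 and 3 and 1.21, 1.40 and 1.47 in the tachypaced replicates. The control and tachypaced ratios did not overlap, so Lcn2 differed by the larger factor. Among the tested genes, Lcn2 stood at the 44.0 to 65.6 percentile of FPKM in control and the 79.9 to 86.2 percentile in tachypaced libraries. Saa3 stood at the 63.1 to 79.2 percentile in control and the 86.8 to 90.2 percentile in tachypaced libraries. Both genes thus stood among the more abundant transcripts in every tachypaced library, Saa3 above Lcn2.

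Among the serum amyloid A genes, the reads were assigned almost wholly to Saa3. Saa1 was listed at 0 in 4 libraries and at 0.0953 and 0.0429 FPKM in control replicate 2 and tachypaced replicate 3. Saa2 was above 0 in tachypaced replicate 1 alone (0.106 FPKM) and Saa4 in tachypaced replicate 3 alone (0.0117 FPKM). Saa3 held between 99.5% and 100.0% of the summed FPKM of the 4 genes in each library. Few stretches of Saa3 could be assigned to another copy: of the 506 words of 50 bases in its main GENCODE transcript, 9 (1.78%) also occur in another gene, and that gene is Saa1. Of the 866 such words in the main Lcn2 transcript, 0 occur elsewhere among GENCODE transcripts. By comparison, 13.3% of the words of Saa2 are shared, all of them with Saa1.

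Lcn2 was likewise the most abundant of the lipocalins in every library. Of 20 other lipocalin family genes in the table, 12 were listed at 0 in every library, among them Lcn3 to Lcn6 and Orm1, the gene of an acute-phase orosomucoid. Only Ambp, which encodes the precursor of alpha-1-microglobulin, and C8g, a complement component subunit, reached a mean of 1 FPKM. Ambp stood at 2.14 ± 0.610 and 2.71 ± 0.510 FPKM in control and tachypaced libraries and C8g at 1.26 ± 0.195 and 0.920 ± 0.132 FPKM (SD, n = 3 each). By limma, 0 of these 2 passed the adjusted threshold and 1 had an unadjusted p under 0.05. Apom, the apolipoprotein M gene, was too low to be tested and stood at 0.145, 0.137 and 0.198 FPKM in controls and at 0.308, 0.518 and 0.529 FPKM in tachypaced libraries, which did not overlap. The share of Lcn2 in the summed lipocalin FPKM was 64.6% to 80.2% among controls and 85.2% to 89.8% after tachypacing. Since Lcn2 makes up most of this sum and was chosen from this contrast, these shares largely restate that choice.

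**Figure D2:**
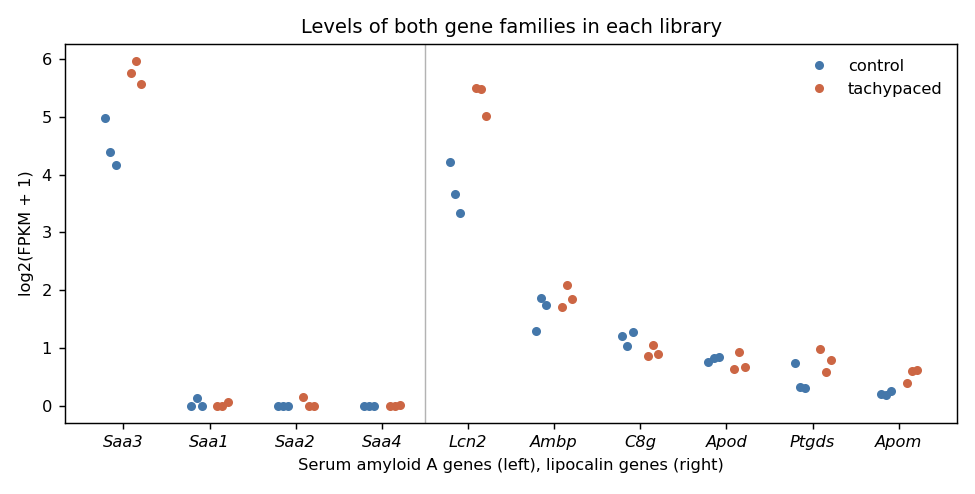
Level of serum amyloid A genes (left of the line) and of the lipocalin genes with the highest FPKM (right) as log2(FPKM + 1), with a point for each of 3 control and 3 tachypaced libraries. Saa1, Saa2 and Saa4 lie at or near 0, and of the lipocalins only Lcn2 exceeds a log2 level of 3.

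The genes known to act with both proteins were taken in 10 lists, written with earlier results of these data known and covering 163 genes in the table, of which 76 were tested. Of these 76, 11 were called, 10 higher and 1 lower. All 11 also passed without control replicate 1, and 0 of them passed when any of the other 5 libraries was left out, with adjusted p-values from 0.0669 to 0.178 (limma). Over all tested genes the calls fell in the same way, to between 1 and 12 higher and between 0 and 1 lower when any of those 5 was left out. Leaving out each of the 6 libraries in turn gave log2 differences of 0.43 to 0.55 for Acod1 and 0.49 to 0.61 for Cd14. The ranges were 0.35 to 0.47 for Ptgs2 and 0.44 to 0.70 for Clec4e. The groups did not overlap in any of the 11 called genes, so leaving out 1 library could not reverse their direction. The counts below from all 6 libraries are set beside the 2.3% of all tested genes called higher and the 3.22% called lower. The share with an unadjusted p under 0.05 was 30.2%, and list medians are set beside a median log2 difference of -0.04 over all tested genes. Counts without control replicate 1 have another background. In that fit 1162 of all 10361 tested genes were called higher and 1947 lower, so larger list counts there are not particular to the lists. A figure of the tested list members shows the called genes by name.

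**Figure D3:**
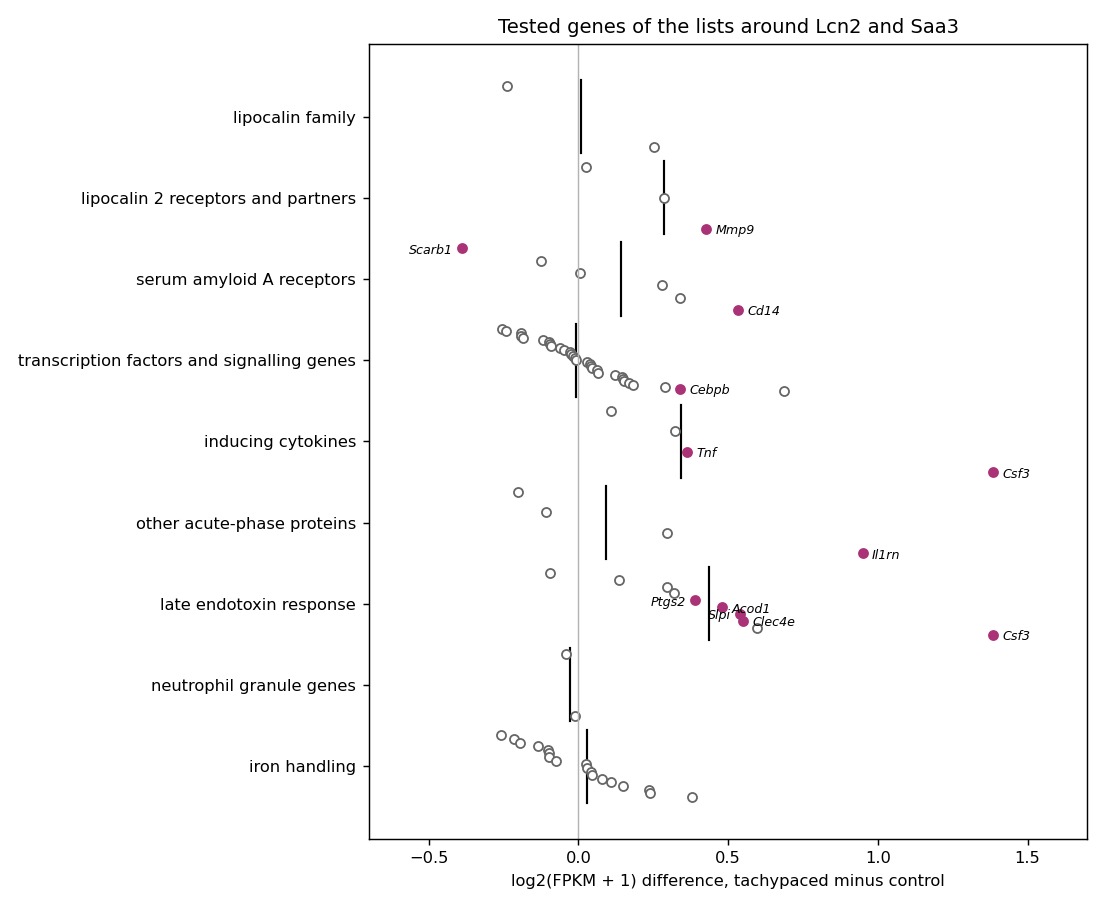
Difference in log2(FPKM + 1), tachypaced minus control, of each tested gene in 9 lists (the serum amyloid A list has no tested gene besides Saa3). Filled points are genes called by limma, black lines are list medians, and Lcn2 and Saa3 themselves are not plotted. Csf3 and Il1rn lie farthest to the right, and Scarb1 is the called gene on the left.

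Of the genes for receptors and partners of lipocalin 2, 3 of 5 could be tested, 1 rose, 0 fell and 2 had an unadjusted p under 0.05, with a list median of 0.29. Mmp9, the gene of a gelatinase that lipocalin 2 binds and protects, rose from 3.18, 2.98 and 2.58 FPKM in controls to 4.28, 4.50 and 3.99 FPKM in tachypaced libraries. Its log2 difference was 0.43 (SE 0.09, limma adjusted p = 0.0435), in the direction of Lcn2. Slc22a17, the gene of a cell surface receptor of lipocalin 2, stood at 6.41 ± 0.538 and 8.05 ± 0.905 FPKM (limma adjusted p = 0.0820). Bdh2, which makes a mammalian siderophore, stood at 7.72 ± 0.736 and 7.87 ± 0.532 FPKM (SD, n = 3 each). The receptor genes Lrp2 (megalin) and Mc4r were at or below 0.0210 FPKM and at 0. The count stayed at 1 higher without control replicate 1, and with a minimum mean of 5 FPKM Mmp9 was not tested.

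Of 12 genes for reported receptors of serum amyloid A, 6 were tested, of which 1 rose, 1 fell and 4 had an unadjusted p under 0.05, with a median of 0.14. Cd14, the endotoxin co-receptor gene, rose from 91.1, 78.7 and 76.7 to 121.9, 126.9 and 109 FPKM, a log2 difference of 0.53 (SE 0.08, limma adjusted p = 0.0435). Scarb1, the gene of the high density lipoprotein receptor SR-BI, fell from 49.2, 62.1 and 58.3 to 41.0, 41.9 and 45.5 FPKM, a log2 difference of -0.39 (SE 0.09, limma adjusted p = 0.0455). Scarb1 did not pass after median of ratios scaling (limma adjusted p = 0.0512). The Toll-like receptor genes Tlr4 and Tlr2 did not pass, at 5.54 ± 1.18 and 7.20 ± 0.516 FPKM and at 12.8 ± 0.270 and 11.7 ± 0.703 FPKM in control and tachypaced libraries (SD, n = 3 each). Fpr2, the formyl peptide receptor through which serum amyloid A attracts leukocytes, averaged 0.0275 and 0.0312 FPKM and was not tested. Of these 6 genes, 3 rose and 1 fell without control replicate 1. Tlr4 was among those that rose, with a log2 difference of 0.48 (limma adjusted p = 0.0034) in place of 0.34 (limma adjusted p = 0.102), and Cd14 reached 0.61.

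Among 31 tested genes of the factors and signalling proteins that act on Lcn2 and Saa3, 1 rose and 0 fell, with 8 at an unadjusted p under 0.05 and a median of -0.01. Cebpb, the gene of C/EBP-beta, rose from 62.1, 60.4 and 53.5 to 75.1, 81.4 and 67.2 FPKM, a log2 difference of 0.34 (SE 0.08, limma adjusted p = 0.0491), and did not pass after median of ratios scaling (limma adjusted p = 0.0529). Nfkbiz stood at 14.7, 15.8 and 14.7 FPKM in controls and at 13.3, 15.2 and 13.7 FPKM in tachypaced libraries, which overlap. Cebpd stood at 1.79 ± 0.265 and 1.92 ± 0.184 FPKM. Stat3, which carries interleukin 6 signals, stood at 22.8 ± 0.247 and 21.3 ± 0.252 FPKM without passing (SD, n = 3 each). The NF-kB subunit gene Rela and the inhibitor gene Nfkbia had log2 differences of -0.03 and 0.06, both named after their values were seen. Ikbke, the gene of an NF-kB activating kinase, also named after its values were seen, stood at 10.5, 6.11 and 6.02 FPKM in controls and at 12.7, 12.8 and 11.7 FPKM in tachypaced libraries and did not pass (limma adjusted p = 0.0508). Control replicate 1 was the control nearest to the tachypaced values there too, and without it 6 of the 31 genes rose and 2 fell.

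Of 16 cytokine genes that can induce Lcn2 or Saa3, or are induced in the same response, 15 were in the table and 4 were tested, 2 rose and 0 fell, 3 had an unadjusted p under 0.05, and the median was 0.34. Csf3, the granulocyte colony stimulating factor gene, rose from 5.19, 4.18 and 2.77 to 10.5, 16.5 and 9.76 FPKM, a log2 difference of 1.39 (SE 0.21). Tnf, the tumour necrosis factor gene, rose from 46.9, 40.1 and 38.3 to 54.3, 55.6 and 51.7 FPKM, a log2 difference of 0.36 (SE 0.08), and both had a limma adjusted p of 0.0435. Osm, the oncostatin M gene, stood at 3.06 ± 0.374 and 4.08 ± 0.153 FPKM (SD, n = 3 each) and did not pass (limma adjusted p = 0.0594). Il18, the interleukin 18 gene, stood at 5.05 ± 0.625 and 5.52 ± 0.608 FPKM (SD, n = 3 each) and did not pass (limma adjusted p = 0.49). The remaining genes of the list were under the filter, and several were scarcely detected. Il1b, Il17a and Il22 were listed at 0 in every library, and Il6 was at or below 0.0308 FPKM. Leaving out control replicate 1 gave 3 higher of the 4 tested genes.

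Acute-phase genes typical of the liver were mostly at or near 0 beside Saa3. Of 25 other acute-phase genes 10 were listed at 0 in every library and 4 were tested, of which 1 rose and 0 fell, 2 had an unadjusted p under 0.05, and the median was 0.09. Those 2 included C3, a complement component gene whose control mean of 0.9998 FPKM was under the filter. The gene that rose was Il1rn, the interleukin 1 receptor antagonist, from 24.2, 16.7 and 16.2 to 38.5, 42.3 and 31.3 FPKM, a log2 difference of 0.95 (SE 0.15, limma adjusted p = 0.0435). Haptoglobin, Hp, was listed at 0 in the controls and at 0.0550, 0.0509 and 0.0301 FPKM in tachypaced libraries. The metallothionein genes Mt1 and Mt2 were abundant, at 946 ± 223 and 807 ± 48.1 FPKM and at 1330 ± 274 and 1215 ± 47.2 FPKM (SD, n = 3 each), and did not pass. Leaving out control replicate 1 gave 2 higher and 2 lower of the 4 tested genes.

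A list of 20 genes that macrophages express after endotoxin is labelled late in the figure, but their timing was not examined. Of these, 10 were tested, 5 rose, 0 fell and 8 had an unadjusted p under 0.05, with a median of 0.44. Among the 8 were the chemokine gene Ccl2 and C3, with control means of 0.773 and 0.9998 FPKM. Those means were under the filter, so both genes were tested only through their tachypaced values. They also enter the counts without control replicate 1. Besides Csf3 the 5 that rose were Clec4e (the C-type lectin Mincle), Slpi (a secreted protease inhibitor), Acod1 (which makes itaconate) and Ptgs2 (cyclooxygenase 2). Their log2 differences were 0.55, 0.54, 0.48 and 0.39, with the same limma adjusted p of 0.0435. Clec4e stood at 77.4, 59.4 and 53.6 FPKM in controls and at 91.5, 97.1 and 88.5 FPKM in tachypaced libraries. Acod1 stood at 4.04, 3.51 and 3.27 and at 5.58, 5.63 and 5.06 FPKM. In both genes the groups did not overlap, and control replicate 1 was again the highest control. Nos2, the inducible nitric oxide synthase gene, stood at 75.9 ± 6.67 and 70.9 ± 3.03 FPKM (SD, n = 3 each) and did not pass. Without control replicate 1, 9 of the 10 rose and 1 fell, with log2 differences of 0.70 for Clec4e and 1.55 for Csf3.

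Genes typical of neutrophils, among them those of proteins stored in granules as lipocalin 2 is, were mostly near 0. Of 16 such genes, labelled granule genes in the figure, 6 were listed at 0 in every library, among them Ltf (lactoferrin). The 2 tested were Prtn3 and Cebpe, which encodes a C/EBP factor and no granule protein. Of these limma called 0, and 0 had an unadjusted p under 0.05. The summed level of the 16 ran from 2.89 to 4.81 FPKM in control and from 3.47 to 4.19 FPKM in tachypaced libraries, which overlap. S100a8, a calprotectin subunit gene, stood at 0.850 ± 0.304 and 0.890 ± 0.242 FPKM (SD, n = 3 each). Of 24 iron handling genes 18 were tested and limma called 0, with 6 at an unadjusted p under 0.05 and a median of 0.03. Fth1 and Slc40a1, the genes of ferritin heavy chain and of the iron exporter ferroportin, were named after their values were seen and stood at 1663 ± 123 and 1961 ± 165 FPKM and at 1.57 ± 0.317 and 2.33 ± 0.248 FPKM (limma adjusted p = 0.0877 and 0.0669). Without control replicate 1, 3 of the 18 rose and 4 fell.

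Markers of other cell types known to make Lcn2 or Saa3 were also low. No library median exceeded 0.00745 FPKM for epithelial genes, 0 for hepatocyte genes, 0.0388 for adipocyte genes, 0.0171 for neutrophil, 0.0243 for fibroblast or 0.0254 for endothelial genes. The defining genes Adipoq and Plin1 (adipocyte), Epcam and Cdh1 (epithelial) were listed at 0 in every library. Fabp4, a fatty acid binding protein gene that the adipocyte list holds and macrophages also express, rose from 117.9, 103.2 and 100.2 FPKM in controls to 165.9, 189.3 and 152.2 FPKM in tachypaced libraries (limma adjusted p = 0.0435). With it, the summed adipocyte list ran from 100.9 to 118.8 FPKM in control and from 153 to 189.7 FPKM in tachypaced libraries. The summed level of the 13 neutrophil markers, of which 4 were at 0 throughout, ran from 2.44 to 3.38 and from 3.76 to 4.07 FPKM, and of the 2 that were tested limma called 0, with 1 at an unadjusted p under 0.05. That gene was Csf3r, the receptor gene of granulocyte colony stimulating factor, at 1.48, 0.586 and 0.568 FPKM in controls and at 1.46, 1.94 and 1.51 FPKM in tachypaced libraries, so its control mean of 0.879 FPKM was under the filter and its groups overlapped. Without Csf3r the neutrophil sums ran from 1.87 to 2.55 and from 2.13 to 2.35 FPKM, and without Fabp4 the adipocyte sums ran from 0.398 to 0.939 and from 0.400 to 0.720 FPKM, which overlap in both lists. These 2 genes were singled out after their values were seen. Of 8 tested macrophage markers 2 rose, Cd14 and Lyz2, and 0 fell, while 6 had an unadjusted p under 0.05 and the median was 0.25. In 4 of the 8 the groups did not overlap with tachypaced higher, against 12.6% of all tested genes. The summed level of the 10 markers ran from 993 to 1138 FPKM in control and from 1253 to 1391 FPKM in tachypaced libraries. Its largest terms were Lyz2 (means of 358 and 504 FPKM in control and tachypaced libraries) and Cd68 (420 and 483 FPKM). Csf1r stood at 95.5 ± 8.09 and 94.8 ± 3.22 FPKM (SD, n = 3 each), so not every marker was higher. The summed level of the macrophage markers was thus higher in tachypaced libraries, as were Lcn2 and Saa3. The part of these markers in the result was not tested.

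Genes beside Lcn2 and Saa3 on the chromosome did not show differences of the same size. Lcn2 and Saa3 were chosen from this contrast and are among its largest increases, so this is a description and no result about either region. Within 200 kb of Lcn2, 11 genes were tested and 0 passed by limma (4 at an unadjusted p under 0.05), with log2 differences from -0.24 to 0.34. The highest was that of 1110008P14Rik, whose start lies 6.3 kb from that of Lcn2 and which stood at 50.6, 41.3 and 42.1 FPKM in controls and at 53.1, 63.3 and 54.2 FPKM in tachypaced libraries (limma adjusted p = 0.0601). Ptges2, on the other side at -7.6 kb, stood at 3.73 ± 0.378 and 3.02 ± 0.458 FPKM (SD, n = 3 each). Within 200 kb of Saa3, 4 genes were tested and 0 passed (1 at an unadjusted p under 0.05), from -0.45 for Ldha, the lactate dehydrogenase A gene, to 0.03 for Gtf2h1. Ldha was lower in tachypaced libraries, at 1279 ± 46.7 against 1762 ± 314 FPKM, without passing (limma adjusted p = 0.0568), and Saal1, with its start 5.0 kb away, stood at 5.48 ± 0.424 and 4.71 ± 0.413 FPKM. Without control replicate 1, 1 of these 15 neighbours rose and 3 fell.

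**Figure D4:**
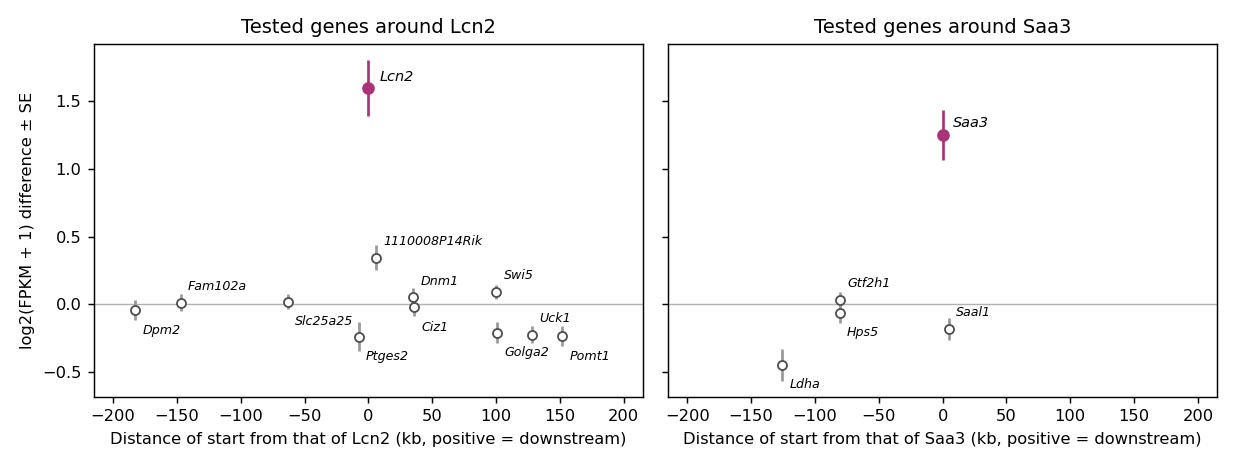
Difference in log2(FPKM + 1) ± SE, tachypaced minus control, of tested genes within 200 kb of Lcn2 (left) and Saa3 (right) against the distance between annotated gene starts in kb. Lcn2 (1.60) and Saa3 (1.25), chosen for being higher, stand above neighbours that lie between -0.45 and 0.34.

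Profiles over the 6 libraries were compared by the root mean square difference of log2(FPKM + 1) after subtracting each gene's mean. The nearest of the tested genes to Lcn2 was Saa3 itself, at 0.192 (Pearson r = 0.994 over 6 libraries that fall into 2 groups). Next to Lcn2 came Csf3 (0.225), Cox6a2 (0.306), which encodes the muscle form of a respiratory chain subunit, the chemokine gene Ccl3 (0.341) and the leukocyte receptor gene Lilr4b (0.343). The genes nearest to Saa3 were Cox6a2 (0.126), Ccl3 (0.160), Lilrb4a (0.167), Csf3 (0.169) and Lilr4b (0.169), and Lcn2 ranked 8. Lilr4b and Lilrb4a are near-identical neighbours, so reads could be divided between them. These genes are among those with the largest increases, so the likeness repeats the contrast by which Lcn2 and Saa3 were chosen and is given as a description. Their levels differ widely: Ccl3 stood at 1989, 1342 and 1217 FPKM in controls and at 2877, 3273 and 2440 FPKM in tachypaced libraries, while Cox6a2 stood at 7.54, 5.26 and 4.56 and at 11.8, 16.6 and 12.1 FPKM.

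**Figure D5:**
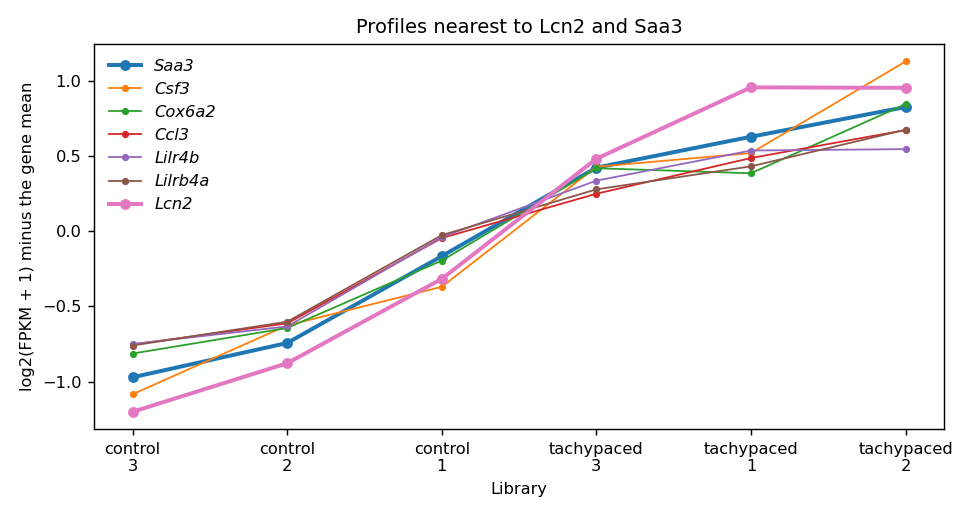
Centred log2(FPKM + 1) of Lcn2, Saa3 (thick lines) and the 5 other genes named as nearest to them, with the libraries ordered from control replicate 3 to tachypaced replicate 2. All 7 profiles rise through the 3 controls in the order 3, 2, 1 and have control replicate 1 between the other controls and the tachypaced libraries.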

How the data were processed

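Total RNA of 6 HL-1 samples (3 control, 3 tachypaced) was made into libraries with a SMARTER kit, per the labels' protocols. The authors deposited FPKM values for 23060 rows, 1 column per sample. The submitters' processing notes name GRCm38 (mm10) as the build. Which aligner and quantifier were run, and whether strand was used, is not given in the sources used here. Columns were matched to samples by the sample descriptions. Ratios of low values between libraries gathered on no common step (at most 3.45% fell within any 0.05 log2 units), so depth is unknown and no counting interval is given. Positions are from GENCODE M21 (21437 of 21859 named rows matched by symbol) and upstream sequences from RefSeq.

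Genes averaging 1 FPKM or more over the 6 libraries (10361) were tested on log2(FPKM + 1) with limma 3.58.1 (trend, two-sided) in R 4.3.3, with Benjamini-Hochberg adjustment over all of them and a threshold of 0.05. The steps were tested on simulated data. An exact permutation test of 3 against 3 cannot go below 0.1 and was not used. Named genes were both chosen genes, their families, up to 4 called genes per list, a fixed set whatever its result, neighbours within 200 kb and the 5 nearest profiles. Apom, Bdh2, Mc4r, Mt1, Mt2, C3, Ccl2, Nos2, Osm, Il17a, Il18, Il22, Prtn3, Cebpe, Csf3r, Tnni3, Fabp4, Lyz2, Cd68 and Csf1r were named after their values were seen. The genes and lists were chosen with earlier results of these data known. Alternatives were a pseudocount of 0.1, no filter, a minimum of 5 FPKM, median of ratios scaling, a replicate block and leaving out each library. Python 3.11.15, Biopython 1.88 and matplotlib 3.10.9 were used for sequences and figures.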

Additional observations from a re-analysis of the deposited data

How the results depend on the processing

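The log2 differences of Lcn2 (1.60) and Saa3 (1.25) ran from 1.40 to 1.84 and from 1.08 to 1.48 when 1 library was left out. They were 1.67 and 1.29 at a pseudocount of 0.1. Since the groups did not overlap in either gene, leaving out 1 library could not reverse the direction. The filter settings and the replicate block leave both differences unchanged by construction. Calls varied widely between the alternatives. Without the filter on low values, limma called 0 genes higher and 0 lower of 15992 tested, with 3488 at an unadjusted p under 0.05, and so 0 for each list with calls. Median of ratios scaling gave 184 lower genes instead of 334, 0 lower receptors of serum amyloid A and 0 higher signalling genes. With a minimum of 5 FPKM, 0 partners of lipocalin 2 were higher, since Mmp9 was then not tested, and 2 signalling genes, 1 neighbour higher and 1 lower passed. With the replicate block, 334 genes were higher and 591 lower, 2 partners and 2 signalling genes were higher and 1 neighbour was lower. The SE of the Lcn2 difference was 0.105 with the block and 0.208 without it. Same-numbered libraries had deviation correlations of 0.061, -0.034 and 0.157. Such correlations cannot settle whether the numbers pair the libraries, and the labels state no pairing, so the block is given only for completeness. Leaving out 1 library gave 1 to 1162 genes higher and 0 to 1947 lower over all genes. In the lists the counts ran from 0 to 1 higher for partners, 0 to 3 higher and 0 to 1 lower for receptors of serum amyloid A, 0 to 6 higher and 0 to 2 lower for signalling genes, 0 to 3 higher for cytokines, 0 to 2 higher and 0 to 2 lower for acute-phase genes, 0 to 9 higher and 0 to 1 lower for the endotoxin list, 0 to 3 higher and 0 to 4 lower for iron handling, and 0 to 1 higher and 0 to 3 lower for neighbours. The upper ends came without control replicate 1, and the cause was not tested. Depth is unknown, so genes listed at or near 0 cannot be called absent.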
